A study of Canis lupus familiaris with 5 samples.

Results

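Of the 6 genes described here, F13A1, MMRN1, TFPI, CD36 and ESAM are known from platelets or the vessel wall, and TSPAN33 was grouped with them. All 6 were followed across 5 canine lymphoid tumour cell lines. They were chosen by their high readings in the line CLL-1390 on these same arrays. Their height there is therefore a description and carries no test. Every probe set annotated to one of the 6 symbols was used, which gave 9 of 42924 probe sets, or 6 of 15115 named genes. Transcripts were measured in total RNA on Affymetrix canine arrays, 1 array per line, from untreated cells grown in RPMI with 10% FBS. By their labels, 17-71 is a B-lymphoid malignancy, GL-1 a B-cell leukemia, CL-1 a primitive a/b T-cell leukemia, CLGL-90 an LGL leukemia of T cells and CLL-1390 a primitive T-cell leukemia. No line has a second array, so any spread given here is between lines, and a value in bulk RNA cannot tell a few cells rich in a transcript from many cells with less of it.

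A clot forms when platelets stick to an injured vessel and the coagulation cascade turns fibrinogen into fibrin, which factor XIII then cross-links. Megakaryocytes make platelets and load them with clotting proteins, while endothelial cells line the vessel and hold the cascade in check. Several of the proteins in question are not restricted to these cells: F13A1 and CD36 are also made by monocytes and macrophages, CD36 and TSPAN33 by erythroid precursors, and ESAM and MMRN1 by blood stem and progenitor cells.

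All values are log2 intensities, in which a step of 1 is a doubling. The 59 control probe sets for bacterial and artificial tag sequences, which dog RNA should not hold, had medians of 4.07 to 4.29 and highest values of 6.39 to 6.76 per array. Readings at or under the highest control are called background below, and a difference measured from background has no fixed size. Array medians lay between 6.87 and 6.99. The 2 B-labelled and 3 T-labelled lines form the only groups with more than 1 array.

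F13A1 encodes the A subunit of factor XIII, the transglutaminase that cross-links fibrin. Its first probe set read 5.70 in 17-71, 5.74 in CL-1, 5.90 in GL-1, 6.15 in CLGL-90 and 13.34 in CLL-1390. The first 4 lines lay within 0.45 of each other and at background, and CLL-1390 stood 7.19 above the highest of them, or 146-fold. A second probe set of F13A1 read 5.72 to 6.11 in the other lines and 10.80 in CLL-1390, a gap of 4.69 (25.8-fold). Both probe sets thus placed CLL-1390 alone above background, with gaps that differed by more than the other 4 lines did among themselves.

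MMRN1 encodes multimerin 1, a large secreted protein that binds coagulation factor V and is stored in platelet granules. One probe set read 4.30 in 17-71, 4.21 in CL-1, 4.25 in GL-1, 4.24 in CLGL-90 and 11.35 in CLL-1390. The other 4 lines were within 0.09 of each other, near the median of the controls, and the gap was 7.05 (133-fold). A second probe set read 3.23 to 3.39 in the other lines and 4.99 in CLL-1390. It too was highest in CLL-1390, by 1.60, yet that reading was under the highest control of its array, 6.70. Averaged over both probe sets the gap of MMRN1 was 4.35, so its size rests on which probe set is read.

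TFPI encodes tissue factor pathway inhibitor, a protein with Kunitz domains that blocks factor VIIa bound to tissue factor and factor Xa, and so stops coagulation at its start. The probe set of higher mean read 6.19 in 17-71, 6.19 in CL-1, 6.09 in CLGL-90, 9.08 in GL-1 and 11.03 in CLL-1390. The second read 3.12, 3.07, 3.08, 8.76 and 10.997 in the same order. TFPI was the exception among the 6 genes, since GL-1 as well as CLL-1390 stood clear of the other lines. CLL-1390 exceeded GL-1 by 1.95 on the first probe set (3.87-fold) and by 2.23 on the second (4.71-fold), and GL-1 exceeded the next line by 2.89 and 5.65. Without GL-1, the first gap of TFPI would be 4.84.

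CD36 encodes a scavenger receptor that binds thrombospondin, oxidised lipoprotein and long-chain fatty acids on platelets, capillary endothelium and macrophages. Its only probe set read 4.16 in 17-71, 4.06 in CL-1, 4.39 in GL-1, 4.28 in CLGL-90 and 10.64 in CLL-1390, a gap of 6.25 (76.2-fold). The other lines lay within 0.33 of each other, near the median of the controls.

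ESAM encodes an immunoglobulin-like adhesion molecule of endothelial tight junctions that is also found on platelets. It read 5.85 in 17-71, 5.77 in CL-1, 5.51 in GL-1, 5.89 in CLGL-90 and 10.99 in CLL-1390, a gap of 5.10 (34.4-fold) from 4 background readings.

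TSPAN33 encodes a tetraspanin that helps to bring the membrane protease ADAM10 to the cell surface. It read 6.82 in 17-71, 6.63 in CL-1, 6.80 in GL-1, 6.87 in CLGL-90 and 11.30 in CLL-1390, a gap of 4.43 (21.6-fold). The 4 lower values lay just above the highest control of their arrays and within 0.24 of each other. A reading at that height, the same in 4 lines, shows neither expression nor its absence.

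**Figure D1:**
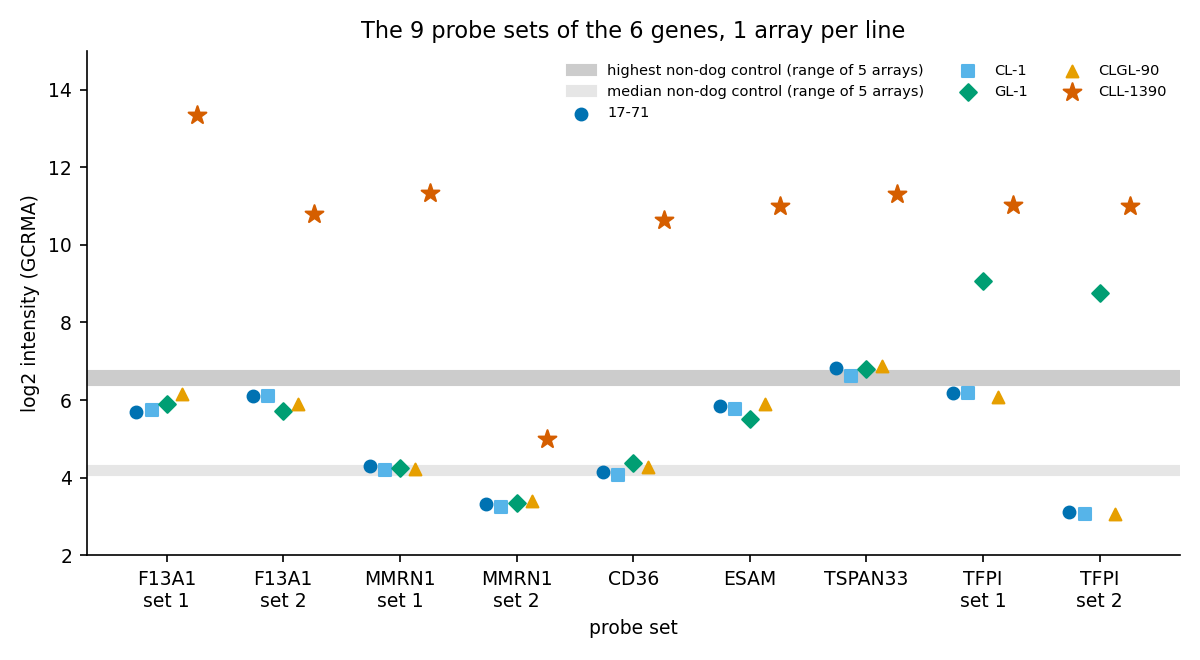
Log2 intensity of the 9 probe sets of the 6 genes, with 1 point per line and array; set 1 is the probe set of higher mean. The darker band spans the highest non-dog control of the 5 arrays (6.39 to 6.76) and the lighter band their medians (4.07 to 4.29). CLL-1390 is highest in all 9; the other lines lie at background, except all 4 just above it for TSPAN33 and GL-1 for TFPI.

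Over the 9 probe sets, 30 of the 36 readings in the other 4 lines were at background. The 6 that were not are the 4 of TSPAN33 and the 2 of TFPI in GL-1. When every value under log2 6 was raised to 6, which removes differences within the low range, the gaps were 7.19 for F13A1, 5.35 for MMRN1, 4.64 for CD36, 4.99 for ESAM, 4.43 for TSPAN33 and 1.95 for TFPI. The order of CD36 and ESAM by gap therefore depends on how low readings are treated, and 5 of the 6 gaps stayed above 4.

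With 1 probe set a gene (that of highest mean), 5 of the 6 genes stood at least log2 2 above every other line in CLL-1390, where 61 of 15115 named genes (0.404%) did. TFPI fell just short. These counts repeat what chose the genes, and nothing is read from them. F13A1, MMRN1 and CD36 had the 3 largest gaps of all named genes in CLL-1390, ESAM the 5th and TSPAN33 the 6th, with TFPI at place 63. The genes next to the threshold were PHKG1 at 2.01 inside it, and TM2D2 at 1.97 and TFPI at 1.95 outside it. None of the 6 was at least log2 2 below the other lines, as 0.238% of genes were. The median gene lay 0.23 below the highest other line. Without GL-1 the count of genes past log2 2 would be 114.

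**Figure D2:**
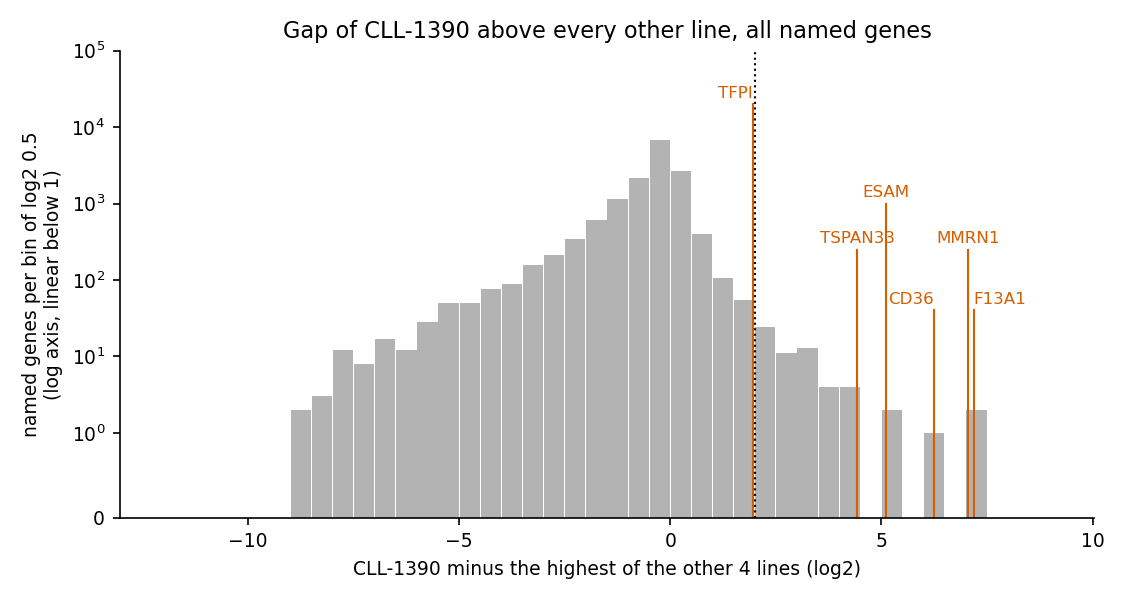
Number of named genes (log axis, linear below 1) by the gap of CLL-1390 above the highest of the other 4 lines, in log2, with the 6 genes as vertical lines whose heights have no meaning and the dotted line at 2. F13A1 (7.19), MMRN1 (7.05) and CD36 (6.25) lie at the right end, and TFPI (1.95) lies just left of the dotted line.

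Between B-labelled and T-labelled lines, no difference in these genes passed the test. F13A1 averaged 5.80 ± 0.14 (SD, n = 2 lines) in the B-labelled and 8.41 ± 4.28 (n = 3) in the T-labelled lines. B minus T was -2.61 (SE 2.54, limma adjusted p = 0.99994). The wide T-labelled spread is that between CLL-1390 and the other 2 T-labelled lines. For TFPI, B minus T was -0.14 (SE 1.88) on the first probe set and 0.22 (SE 3.19) on the second. GL-1 is among the B-labelled and CLL-1390 among the T-labelled lines. Probe sets had to reach log2 5 on 2 arrays to be tested, which CD36 and both probe sets of MMRN1 did not, having passed it on 1 array or none. Of the 6 probe sets tested, from 4 genes, limma called 0 after Benjamini-Hochberg adjustment and 0 at an unadjusted p under 0.05. It called 0.0136% of all probe sets and 0.00706% of all genes. The readings compared include those that chose the genes, so the comparison only describes them.

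The T-cell label of CLL-1390 was checked on the chains of CD3. CD3D read 10.89 in CLL-1390 against 5.14 in 17-71 and 5.44 in CL-1, and CD3G read 8.86 against 5.75 and 5.34. Both were higher still in CLGL-90 (13.51 and 12.69), and GL-1, labelled B, read 9.78 and 10.01. CD3E read 8.48 in CLL-1390 and 10.24 in CLGL-90 against 7.81 to 8.13 in the other lines. With 1 probe set a gene, 9 of the 14 T-lineage genes measured read above background in CLL-1390. LCK read 11.44 there, with CLGL-90 at 11.78, GL-1 at 10.65, CL-1 at 8.88 and 17-71 at 5.58. CD7 read 9.25, with CLGL-90 at 10.31, GL-1 at 8.92 and at most 5.96 elsewhere. GATA3 read 8.64, with GL-1 at 9.40, 17-71 at 8.45, CLGL-90 at 8.13 and CL-1 at 7.21, so it did not part the T-labelled from the B-labelled lines. Among those at background in CLL-1390 was CD247, the zeta chain of the receptor complex (6.58, with CL-1 at 11.16). So were the costimulatory receptor CD28 (6.32, lowest of the 5 lines) and the adaptor TRAT1 (4.19, with CLGL-90 at 11.93). CD2 was also at background in CLL-1390 (6.30, with CLGL-90 at 12.59 and 17-71, labelled B, at 11.42), though its other probe set was not. LEF1, a T-lineage transcription factor, read 10.83 in CLL-1390, 9.00 in GL-1 and at most 4.95 elsewhere. CD6, a T-cell surface receptor, read 8.66 against 6.93 to 7.18. Of the 14 T-lineage genes measured, 3 were highest in CLL-1390, a share close to the 21.2% of all named genes, and the list's median there was 8.56 against 5.90 in 17-71, 6.56 in CL-1, 8.11 in GL-1 and 10.48 in CLGL-90. Of 13 B-lineage genes, 1 was highest in CLL-1390 (21.2% of all named genes were): CD79B, at background in all 5 lines. In CLL-1390, 3 of the 13 read above background. One of them, BTK, read 11.23 there, with 17-71 at 11.52, GL-1 at 11.46, CLGL-90 at 4.68 and CL-1 at 3.93.

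Megakaryocyte and platelet genes other than the 6 were higher in CLL-1390 in part. Of 24 on the array, 12 were highest in CLL-1390 (21.2% of all named genes were), and 2 stood at least log2 2 above every other line (0.404% did). Among the 12, GP1BA, GP6 and P2RY1 were at background in every line, and ITGA2B and CLU led by only 0.01 and 0.03. Under other scalings, floors and summaries 9 to 13 were highest and 1 to 3 passed log2 2. ITGA2, the collagen-binding integrin alpha 2 of platelets, read 8.05 against 4.17 to 4.84. Its other probe sets stayed at background, one at 6.20 in CLL-1390 against 3.09 to 3.27 and one at 3.34, below the other lines. GFI1B, a transcription factor required for platelet production, read 11.49 in CLL-1390, with GL-1 at 9.42 and the rest at 6.45 to 7.34. SELP, the adhesion receptor P-selectin of platelet granules, read 7.65 against 6.02 to 6.33, and STXBP5, a regulator of granule release, read 6.89 against 8.01 to 10.47.

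The genes that define a platelet most closely did not stand out in that way. ITGA2B, the integrin chain of the fibrinogen receptor, read 7.51 to 8.13 over the 5 lines, and ITGB3, its partner, 6.10 to 7.04 with 7.53 in CLL-1390. GP9, a chain of the von Willebrand factor receptor, read 7.60 to 8.78 with GL-1 highest. GATA1, the factor that drives megakaryocyte and erythroid genes, was not among these defining genes. It read 8.36 against 7.31 to 7.57, and all 3 of its probe sets were highest in CLL-1390. Over the 5 lines, 6 of the 24 genes stayed at background throughout. The list's median level was 7.50 in CLL-1390, 7.23 in GL-1 and 6.23 to 6.81 in the other 3 lines. The part of such cells or programmes in the readings of the 6 genes was not tested.

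Of 25 endothelial genes, 9 were highest in CLL-1390 (8 to 11 under the same alternatives) and 0 stood at least log2 2 above. Over all named genes these shares were 21.2% and 0.404%. Among the 9, FLT1, PLVAP, LYVE1 and TAL1 were at background in every line, and CLDN5 led by only 0.14. AQP1, a water channel, read 7.69 against 6.37 to 6.69, but its second probe set was at background in every line, with CLL-1390 (6.13) no higher than CLGL-90. ENG, endoglin, a co-receptor for transforming growth factor beta, read 8.07 in CLL-1390 and 7.51 in GL-1 against 5.15 to 5.37. Its other probe sets stayed at background and did not single out CLL-1390, which read 5.31 against 5.92 in GL-1 on one and 6.22 against 6.18 on the other. TAL1, a transcription factor of blood and endothelial precursors, stayed at background at 6.50 against 5.50 to 5.89, and PODXL, a sialomucin, read 7.04 against 6.14 to 6.52. PECAM1 (5.47 to 6.17) and TEK (5.94 in CLL-1390), both defining genes of endothelium, were at background on every array. CDH5 (7.23 to 7.55) and KDR (6.53 to 7.01) varied by less than 0.5, and in both CLL-1390 was under the highest other line.

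Of 23 monocyte and macrophage genes, 5 were highest and 4 lowest in CLL-1390, where 21.2% of all named genes were highest. LYZ, lysozyme, was at background in CLL-1390 (3.77), CL-1 (3.28) and CLGL-90 (4.02), and read 12.39 in 17-71 and 12.01 in GL-1. SPI1, the transcription factor PU.1, read 5.43, 5.21 and 5.51 in the same 3 lines, 9.45 in 17-71 and 8.94 in GL-1. CSF1R (6.53 to 6.72) and CD14 (7.95 to 8.26) hardly varied. The gene furthest above the other lines in CLL-1390 was ITGAM, an integrin chain, at 7.65 against 6.47 to 6.80. The list's median was 6.46 in CLL-1390, 6.09 in CL-1 and 6.49 in CLGL-90, against 8.64 in 17-71 and 8.26 in GL-1. The part of such cells in the readings of F13A1 and CD36 was not tested.

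Erythroid and progenitor genes included several with gaps in CLL-1390. RHAG, a membrane protein of the Rh complex of red cells, read 7.71 against 4.91 to 5.40. KLF1, the erythroid transcription factor, read 8.10 against 6.81 to 6.97, GYPC, a red cell membrane glycoprotein, 12.76 against 6.32 to 11.45, and BLVRB, biliverdin reductase B, 10.76 against 7.26 to 9.72, with 2 more BLVRB probe sets at background in all lines. ALAS2, which starts haem synthesis in erythroid cells, varied only from 7.56 to 7.93. Of 14 erythroid genes, 6 were highest in CLL-1390, where 21.2% of all named genes were. Among the 6, EPB42 was at background in every line and ANK1 led by only 0.03. RHAG alone stood at least log2 2 above (0.404% of all named genes did), and did not when values under log2 6 were raised to 6.

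CD34, the surface antigen of blood progenitors, read 10.27 in CLL-1390 against 6.89 to 7.41, and its second probe set 11.28 against 6.35 to 6.98. HHEX, a homeobox factor of early blood cells, read 9.51 against 5.69 to 7.97. LMO2, a partner of TAL1 in progenitors, read 12.87 in CLL-1390 and 11.60 in GL-1 against 6.76 to 8.37. SPINK2 read 5.29, at background, against 6.32 to 10.21. Of 21 progenitor genes, 8 were highest in CLL-1390 and CD34 alone stood at least log2 2 above. Over all named genes these shares were 21.2% and 0.404%. Among the 8, GATA2, TAL1 and CRHBP were at background in every line, and PROCR led by only 0.22.

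Of 37 other genes of the coagulation system, its inhibitors and fibrinolysis, 9 were highest in CLL-1390 and 0 stood at least log2 2 above. The share highest was close to the 21.2% of all named genes, of which 0.404% stood log2 2 above. Several differed widely between the other lines: ANXA2, a receptor for plasminogen activation, read 12.72 in GL-1 and 7.21 to 8.67 elsewhere, and SERPINB2, an inhibitor of urokinase, 9.21 in 17-71 and 4.06 to 4.57 elsewhere. At background in every line were 18 of the 37, among them F3, the tissue factor that TFPI holds in check (4.04 to 4.43), F7 (6.35 to 6.53), F10 (4.66 to 4.98) and F13B, the carrier subunit of factor XIII (4.91 to 5.58). VKORC1, which recycles vitamin K for the carboxylation of clotting factors, read 12.33 in CLL-1390 against 9.08 to 10.45, and its second probe set 12.04 against 9.01 to 10.20. MCFD2, which helps to export factors V and VIII from the endoplasmic reticulum, was lowest in CLL-1390 at 9.57 against 10.35 to 11.10. PROC, the anticoagulant protein C, read 7.55 against 6.87 to 7.21 (6.30 against 5.94 to 6.43 on a second probe set, at background), and PROCR, its receptor, 7.06 against 6.52 to 6.83.

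In the family and partner lists of the 6 genes, 0 genes stood at least log2 2 above every other line. Only 0.404% of all named genes did, so a 0 in such short lists does not set these relatives apart. Among 7 relatives of F13A1 in the transglutaminase family the furthest were EPB42 (6.06 against 5.59 to 5.85) and TGM5 (5.54 against 5.62 to 5.88). TGM2, the tissue transglutaminase, read 7.13 to 7.40. Among 3 relatives of MMRN1, MMRN2 read 6.81 to 7.41 and EMILIN1 11.53 to 12.04, with CLL-1390 inside the range of the others in all 3. Of 12 genes with Kunitz domains or other ties to TFPI, 2 were highest in CLL-1390 (21.2% of all named genes were). TFPI2 stayed at background (5.25 to 5.51).

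Relatives and partners of CD36 included the only gene of the 14 lists at least log2 2 below every other line. FABP3, a fatty acid carrier, read 6.29 in CLL-1390, at background, against 8.76 to 12.97, and its second probe set 5.47 against 8.69 to 13.11. SCARB2, a lysosomal relative of CD36, read 8.92 against 10.52 to 12.22, and SCARB1, another relative, 10.90 against 9.96 to 10.36. FABP5, by contrast, read 12.56 in CLL-1390, between 17-71 (13.96) and CL-1 (11.20). Of these 27 genes, 6 were highest in CLL-1390 (21.2% of all named genes were) and 0 stood at least log2 2 above (0.404% did).

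Junction molecules related to ESAM and the tetraspanins were mixed. CD99, a transmembrane protein of leukocyte passage through endothelium, read 12.92 in CLL-1390 against 6.82 in 17-71 and 9.84 to 11.92 in the other lines, and PARD3, a polarity protein, 9.53 against 6.92 to 8.59. On 1 of the 4 probe sets of each gene CLL-1390 was not the highest line. Of 17 such genes, 4 were highest in CLL-1390 (21.2% of all named genes were). ADAM10, the partner of TSPAN33, read 11.55 to 12.01 in every line. TSPAN13 was lowest in CLL-1390 on both its probe sets, by unequal amounts: 5.98 against 7.42 to 11.87 on the first, and 7.31 against 7.50 to 9.82 on the second. Of 29 tetraspanins and ADAM10 partners, 7 were highest in CLL-1390 (21.2% of all named genes were), TSPAN32 the furthest at 7.02 against 6.04 to 6.52.

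**Figure D3:**
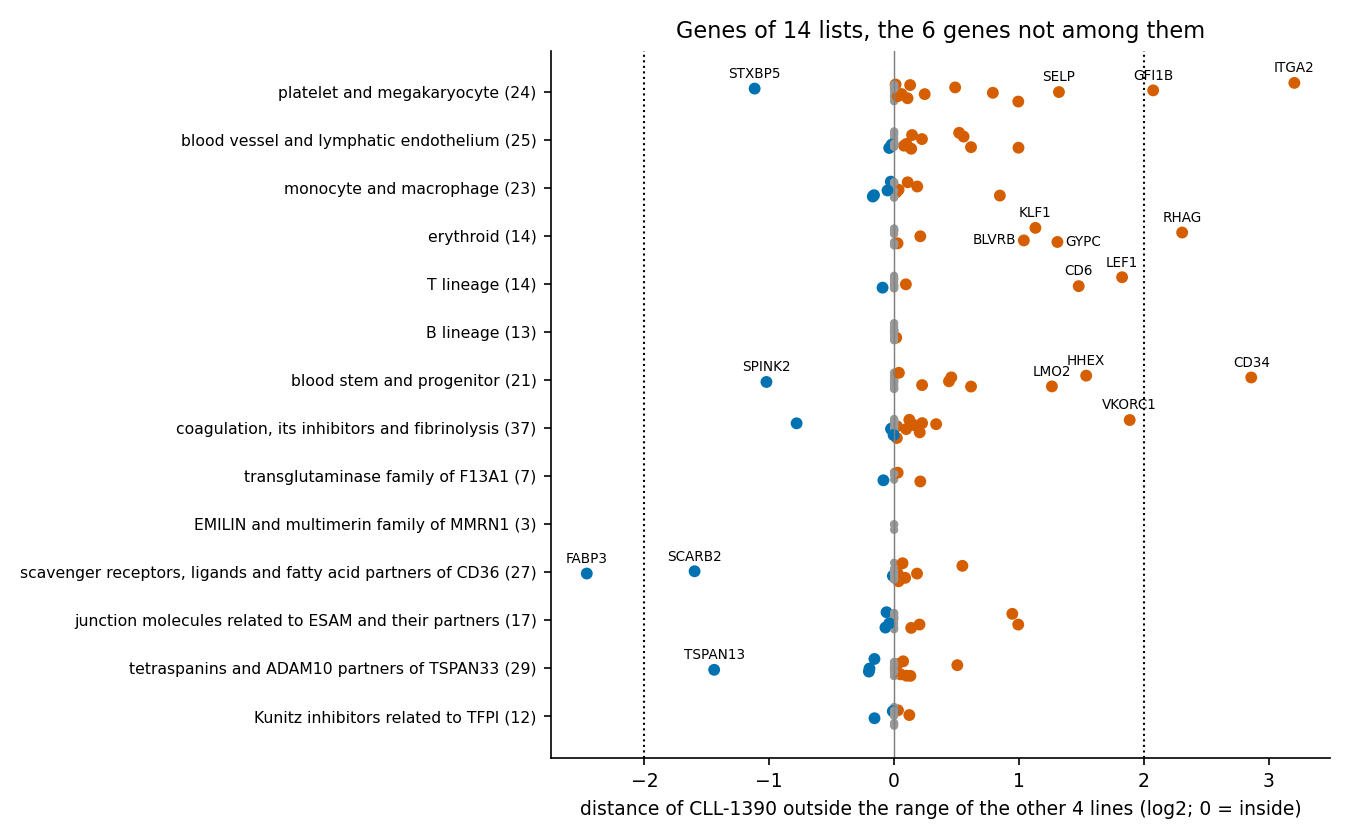
Distance of CLL-1390 outside the range of the other 4 lines, in log2, for each gene of 14 lists (number of genes measured in brackets); orange points lie above every other line, blue points below, and grey points inside the range at 0. Dotted lines mark 2 in either direction, passed by ITGA2, CD34, RHAG and GFI1B above and by FABP3 below.

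By its first probe set TFPI was 1 of 27 named genes at least log2 2 higher in both GL-1 and CLL-1390 than in each of the other 3 lines. The other 9 pairs of lines had 1 to 27 such genes, the pair of CL-1 and CLGL-90 also having 27. Those furthest above in both were CA2, carbonic anhydrase 2, GCSAML and MS4A2, a chain of the IgE receptor. Of genes described above, GFI1B, LMO2, ENG and LEF1 were among the 27. So was NFE2, a transcription factor of late megakaryocytes, which read 8.74 in GL-1, 8.87 in CLL-1390 and 5.10 to 5.55 elsewhere. TBXAS1, thromboxane synthase, also among them, read 10.15 and 10.83 against at most 8.09. The genes named here were picked from the 27 after their values were seen, and no theme is read from them. For F13A1, MMRN1, CD36, ESAM and TSPAN33, GL-1 did not stand apart from 17-71, CL-1 and CLGL-90.

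**Figure D4:**
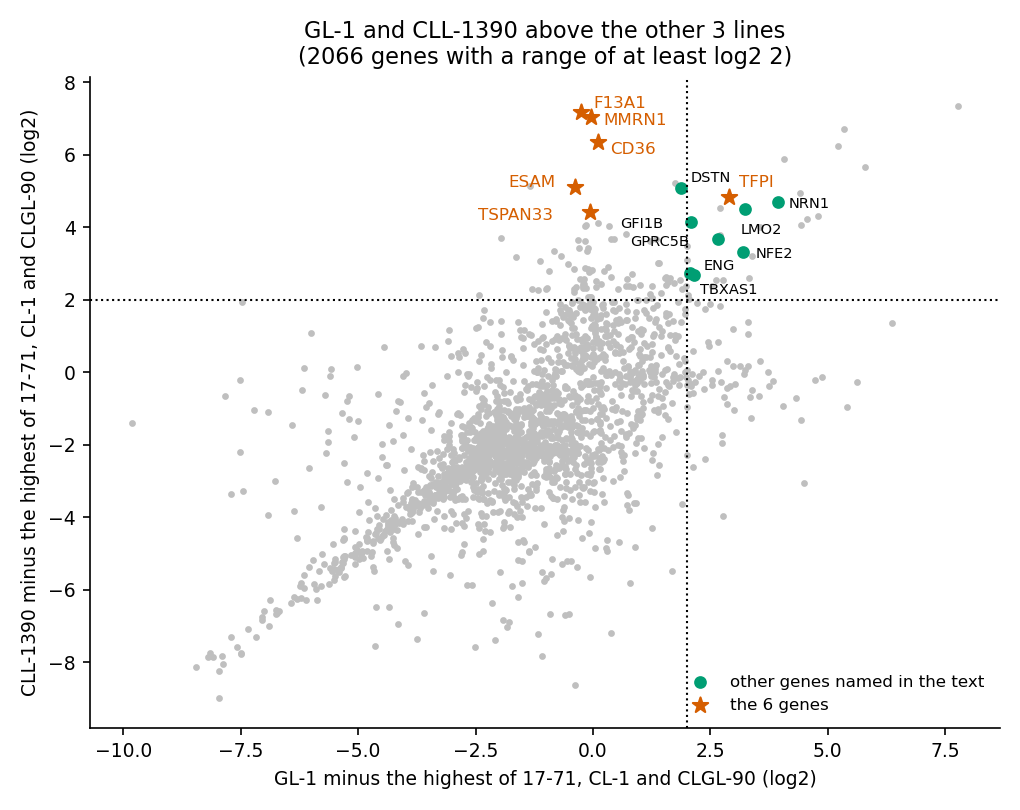
Each point is 1 of 2066 named genes with a range of at least log2 2, placed by how far GL-1 (x axis) and CLL-1390 (y axis) lie above the highest of 17-71, CL-1 and CLGL-90, in log2; dotted lines mark 2. TFPI lies in the upper right with GFI1B, NFE2, LMO2 and ENG, and the other 5 of the 6 genes lie near 0 on the x axis.

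Likeness of pattern was measured as the root mean square difference over the 5 lines after each gene was centred on its own mean, among the 2066 genes with a range of at least log2 2. Differences were not scaled, so for genes flat in the other 4 lines they mostly measure the height of CLL-1390. That height chose the 6 genes. Each gene was read from its probe set of highest mean. F13A1 and MMRN1 were each other's nearest gene at 0.22, though their second probe sets had unlike gaps of 4.69 and 1.60. MMRN1 was also the nearest gene to CD36, at 0.29. PIPOX, pipecolic acid oxidase, was among the 4 nearest to all 3 of these, at 0.55 to 0.68, and read 12.20 in CLL-1390, 7.05 in CLGL-90 and 5.46 to 5.71 elsewhere. TSPAN33 was nearest to ESAM, at 0.32, and the genes nearest to TSPAN33 were TMLHE, an enzyme of carnitine synthesis (0.14), GPR37, a G protein-coupled receptor (0.15), GPRASP1 (0.24) and FAT4, a large cadherin (0.30). TMLHE, GPR37 and GPRASP1 were also 2nd to 4th for ESAM.

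TFPI had other companions. Its nearest gene was GFI1B, at 0.34, followed by GPRC5B (0.40), DSTN, an actin-severing protein (0.47), and HORMAD2 (0.49). This holds for the first probe set of TFPI only. On the second, not used here, GL-1 exceeded the next line by 5.65 and not by 2.89. Among the 6 genes TFPI was nearest to TSPAN33, at 1.13, and farthest from F13A1, at 1.75. All these distances come from the same 5 arrays and are given as a description.

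The genes beside the 6 on their chromosomes were read in the same way. Of the 36 nearest named protein-coding neighbours, 3 on each side, 31 had a probe set. Of these, 8 were highest in CLL-1390, a share close to the 21.2% of all named genes. At least log2 2 above or below every other line stood 0, where 0.404% and 0.238% of all named genes did. Neighbours are too few for these counts to set them apart from other genes. The 3 largest gaps were those of GNAI1, a G protein subunit beside CD36 (11.36 in CLL-1390 and 10.28 in CL-1 against 4.28 to 5.54), SPA17 beside ESAM (8.72 against 7.04 to 7.86) and NRN1, neuritin, next to F13A1. NRN1 read 10.23 in CLL-1390 and 9.47 in GL-1 against 4.59 to 5.52, and is among the 27 genes shared by those lines. LY86, on the other side of F13A1, read 6.77 in CLL-1390 against 6.52 to 7.47. CALCRL, a receptor of vessel cells next to TFPI, stayed at background at 4.50 against 3.90 to 4.01. GNAT3 (4.59 to 5.11) and SEMA3C (4.54 to 4.83), on either side of CD36, were at background in all lines. ROBO4, an endothelial receptor close to ESAM, read 7.55 to 8.01.

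**Figure D5:**
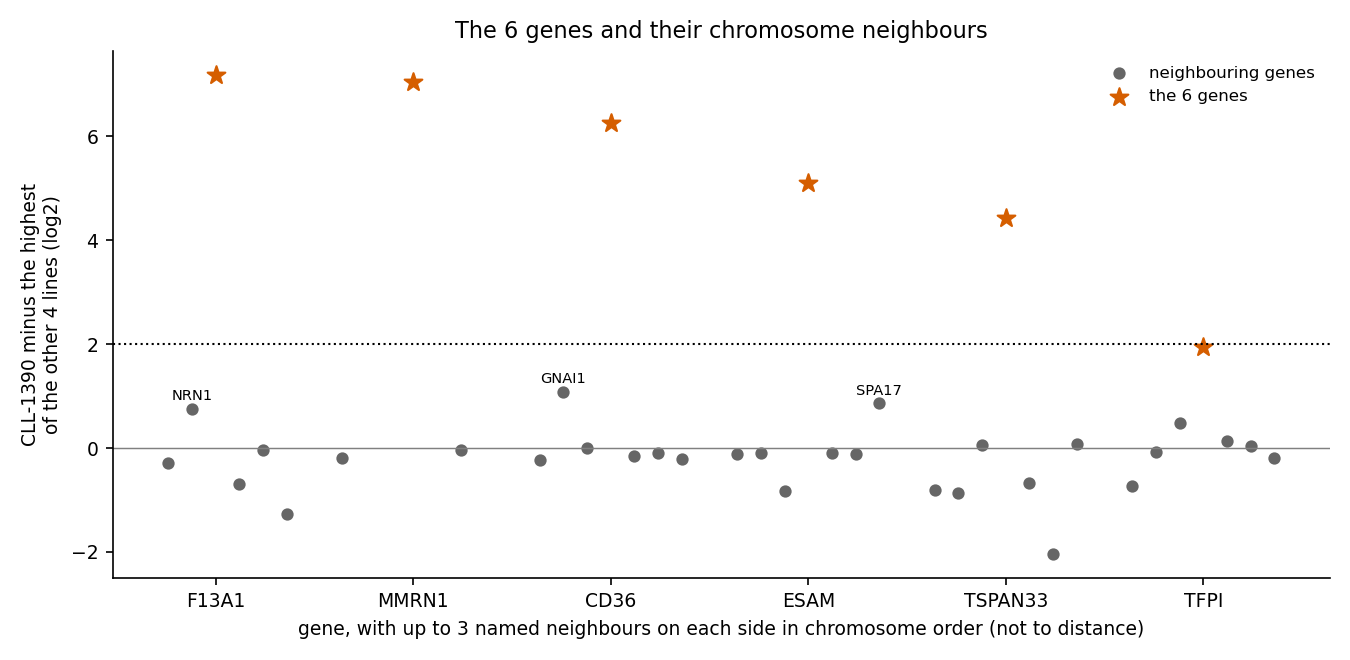
Gap of CLL-1390 above the highest of the other 4 lines, in log2, for the 6 genes (stars) and up to 3 named neighbours on each side in chromosome order (points, spaced by order and not by distance). The dotted line marks 2; NRN1, GNAI1 and SPA17 have the largest gaps among neighbours, the highest at 1.09.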

How the data were processed

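The authors deposited log2 intensities, 1 value per probe set and line, which the submitters' processing notes credit to GCRMA, and the version was not given in the sources used here. Per the labels, RNA integrity numbers exceeded 9 and biotin was the label. The table holds 43035 probe sets, from which 111 controls were removed. A single symbol was given for 29254, several for 439 (unused here), and 13231 were unannotated. A gene was read from its probe set of highest mean. The contrast of B-labelled with T-labelled lines used R 4.3.3 and limma 3.58.1 (two-sided moderated test, Benjamini-Hochberg at 0.05, residual df 3) over 36661 probe sets and 14162 genes that reached log2 5 on 2 arrays. The fit was tested on simulated data. Neighbours were taken from RefSeq's gene table of assembly UU_Cfam_GSD_1.0, for order only. The lists were platelet and megakaryocyte, endothelial, monocyte and macrophage, erythroid, T-lineage, B-lineage, progenitor and coagulation genes, and families or partners of the 6 genes. The text names the 6 genes, the 4 nearest patterns of each, up to 4 genes of each list that lie furthest outside the other lines, defining markers, and neighbours. Others are given for comparison and were named after their values were seen. Genes and lists were chosen with earlier results of these data known. Promoter and protein sequences were not used here. The alternatives were another normalization, centring, floors, filters, priors, groupings, summaries of a gene's probe sets, thresholds and leaving out each line.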

Additional observations from a re-analysis of the deposited data

How the results depend on the processing

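The gap of each of the 6 genes stayed above 0 under all 11 alternatives (66 values, 1.95 to 7.53). The genes were chosen for being high in CLL-1390, so this only describes them. Leaving out another line, or using the median of the other lines, can only keep or raise a gap. The gap of MMRN1 fell to 4.35 with the mean of its probe sets, and that of TFPI rose to 4.84 without GL-1 or against the median of the other lines. The count of genes at least log2 2 above every other line (61) ran from 66 to 114 when 1 other line was left out, the highest without GL-1, and was 221 at a threshold of log2 1 and 26 at log2 3. For B-labelled against T-labelled lines, limma called 5 probe sets. It called 3 with centred arrays, 3 without a filter, 14 at a filter of log2 7 and 15 with an intensity trend. It called 0 with CLGL-90 as its own group (1607 at an unadjusted p under 0.05) and 0 without any 1 line (1186 to 2108 unadjusted). For genes it called 1, and 8 after quantile normalization again, 8 with centred arrays, 9 at log2 7, 10 with the trend, 3 with mean and 11 with most variable probe sets. It called 0 genes with CLGL-90 apart (622 unadjusted) and 0 without any 1 line (474 to 769). The causes were not tested. No fit called any of the 6 genes. Among 24 platelet genes, 9 to 13 were highest in CLL-1390 over 6 settings added after seeing the data. No line has a second array, which limits precision. No paired analysis was possible because each line has 1 array and no replicate number.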
